A study of Mus musculus with 9 samples.

Results

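The glutathione transferases and the enzymes that make, recycle and break down glutathione were followed in testis RNA of mice with and without protamine 2. The genes were taken by name, with earlier results of these data known. The names covered the transferase classes alpha, mu, pi, theta, omega, kappa and zeta, the microsomal transferases and the gamma-glutamyltransferases. The synthesis and recycling genes Gclc, Gss and Gsr were added. This gave 32 of the 38685 genes and loci of the deposited table. Gclm was not analysed here. Testis of C57BL/6 males was compared between 3 wildtype (Prm2+/+), 3 Prm2-heterozygous (Prm2+/-) and 3 Prm2-deficient (Prm2-/-) samples, all untreated as far as the labels say. The ages are not given in the sources used here, and the Prm2 alleles were made by gene editing with CRISPR/Cas9 in oocytes. The tunica albuginea had been removed, so that the RNA came from all cells inside the testis. In such bulk RNA, fewer cells of a type and less RNA per cell cannot be told apart. The study calls the 3 samples of a genotype biological replicates, while the labels do not name separate animals.

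Glutathione is a small peptide with a reactive thiol that cells use against peroxides and electrophiles. The ligase whose catalytic subunit is encoded by Gclc makes its first bond, Gss adds the last amino acid, and Gsr reduces oxidized glutathione again with NADPH. Glutathione transferases join glutathione to reactive compounds such as products of lipid peroxidation, and gamma-glutamyltransferases on the cell surface start the breakdown of glutathione outside the cell. Germ cells and sperm hold membranes rich in unsaturated lipids, and several transferases are known to be abundant in testis.

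RNA was read near the 3′ end of polyadenylated transcripts (QuantSeq), and the table holds normalized counts, that is, read counts of a sample divided by its size factor. The recovered whole counts summed to between 3629929 and 4490411 per library. Prm2 itself did not check the labels: it had 29757, 29716 and 39665 normalized counts in replicates 1 to 3 of Prm2+/+, 30174, 31011 and 34487 in Prm2+/-, and 34660, 36004 and 42766 in Prm2-/-. Between Prm2-/- and Prm2+/+ its log2 fold change (LFC) was 0.20, as the difference of mean log2(normalized count + 1) (adjusted p = 0.746 in limma). Genotypes are therefore those of the labels. Replicate 3 of Prm2+/+ stood apart, with 2589 of 14893 tested genes (17.4%) at least 1 log2 unit from the median of the other 8 libraries, against 6.68% to 7.94% in each of the others. Summed levels of elongating spermatid markers lay between 201500 and 221700 normalized counts in all libraries, whereas 6 of 10 markers of epididymal epithelium were at 0 in every library. The summed epididymal markers were 34.2 to 89.3 normalized counts in the Prm2+/+ libraries, 27.4 to 39.3 for Prm2+/- and 17.2 to 32.7 for Prm2-/-, with every Prm2+/+ library above every Prm2-/- library. The 1 of these markers that could be tested was not called, and their part in the glutathione genes was not tested.

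The genes lay on 10 chromosomes and largely in clusters, so that near-identical copies sit side by side. Positions are those of GRCm38 (GENCODE release M21). All 7 mu class genes lay on chromosome 3, from the start of Gstm5 at 107895821 to the end of Gstm4 at 108044894. The 4 theta genes lay together on chromosome 10 from 75774115 (Gstt3) to 75837424 (Gstt2), and the 3 pi genes on chromosome 19 from 4035407 (Gstp1) to 4059569 (Gstp3). Gsta4, Gsta1 and Gsta2 shared chromosome 9 with Gclc. Gsta3 lay apart from the other alpha genes on chromosome 1 (21240589 to 21265661, plus strand), which also held Mgst3.

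How alike such copies can be decides which counts can be read gene by gene. Gstp1 and Gstp2, which encode pi class transferases, have coding sequences of 633 bases each that differ at 12 positions (98.1% identity). The first 90 bases from the start codon, read 5′ to 3′ from the reference annotation, hold 6 of these differences. They are shown because so few bases of the coding sequence tell the pair apart, and capitals mark those that differ.

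Gstp1: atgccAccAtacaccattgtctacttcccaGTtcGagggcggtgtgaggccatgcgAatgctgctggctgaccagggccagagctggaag

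Gstp2: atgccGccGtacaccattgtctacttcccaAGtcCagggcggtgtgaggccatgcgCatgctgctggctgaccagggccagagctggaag

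Counted from 1 at the A of the start codon, with the base of Gstp1 first, these differences are A6G, A9G, G31A, T32G, G35C and A57C. The longest stretch without a difference ran over 303 bases, and reads were 50 bases long and came from the other end of the transcript. The counts of the pair moved together: Gstp1 had 95 to 132 recovered counts and Gstp2 90 to 127, and within a library they differed by 0 to 10 counts. Their separate values are uncertain, and their sum is the safer quantity. The summed level of Gstp1 and Gstp2 in replicates 1 to 3 was 212.9, 202.5 and 265.2 in Prm2+/+, 253.1, 169.9 and 227.1 in Prm2+/-, and 202.9, 187.7 and 242.9 in Prm2-/-, so that the 3 genotypes overlapped.

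The same check was made for all 32 genes by asking what share of the 50-base words in the last 500 bases of their transcripts also occurs in transcripts of another gene. For 22 of the 32 genes no such word was shared. Gsta1 shared 90% of its words (88.7% with Gm3776), Gstp1 78% with Gstp2, Gsta2 62.1% (45.9% with Gm10639), and Gstp2 55.2%. Gstt3 shared 26.8%, nearly all of them with Gm20441, an overlapping gene model, and Gstm1 shared 23%. The values for Gstm6, Gstm2, Gstm3 and Gstt2 were 11.8%, 10.1%, 0.887% and 0.408%. In the table Gm3776 had 0 to 7.10 and Gm10639 4.42 to 10.2 normalized counts.

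**Figure D1:**
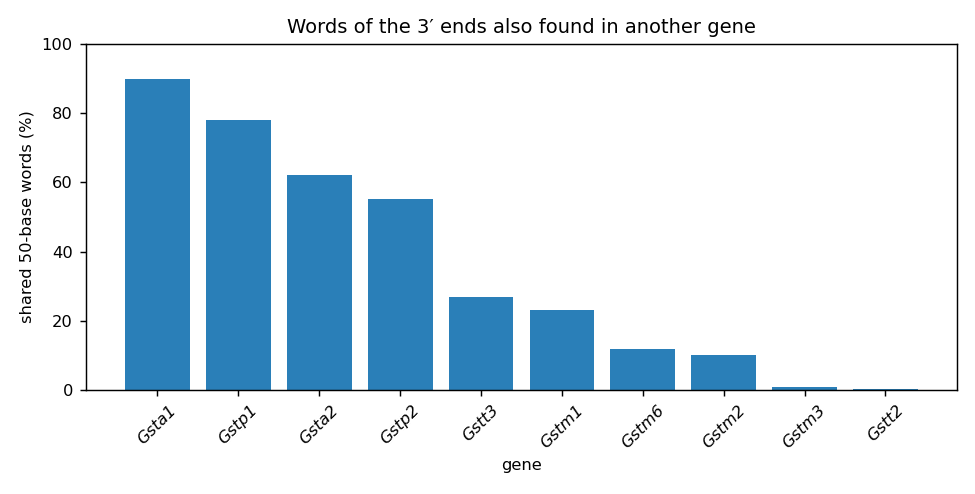
Share of 50-base words in the last 500 bases of each gene's transcripts that also occur in a transcript of another gene, in percent, for the 10 genes with any shared word. Gsta1, Gstp1, Gsta2 and Gstp2 lie between 55.2% and 90%, and the other 22 genes, not drawn, are at 0.

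Overlapping genes are a further limit, since the sources do not state whether the counting used strand. In the annotation 11 of the 32 genes overlap another gene. For Gstm5 the partner is the antisense gene 4933431E20Rik, which had 17.1 to 41.8 normalized counts, far below Gstm5 in every library. Gsto1 and Gsto2 overlap Cfap43 on the other strand, which had 741.7 to 877.3. Gstz1 overlaps Pomt2 (22.5 to 37.0), Gss overlaps Acss2 (168.4 to 206.8), and the antisense partner of Gsta3, Gm28836, was at 0 in every library.

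Together the 32 genes took 0.313% to 0.409% of the counts of a library. Their summed level was 12412, 12595 and 16234 normalized counts in replicates 1 to 3 of Prm2+/+, 13210, 12497 and 13952 in Prm2+/-, and 13525, 16480 and 15867 in Prm2-/-. The highest and the third highest sums thus came from Prm2-/- and replicate 3 of Prm2+/+ lay between them. Most of this spread came from 1 gene, Gstm5: without it the sums lay between 8134 and 9893, and replicate 3 of Prm2+/+ had the lowest of them.

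The mu class held most of the summed counts. It took 55.4%, theta 27.6% and omega 9.47%, followed by alpha with 2.9%, pi with 1.55%, synthesis and recycling with 1.28%, zeta with 1.02%, the microsomal enzymes with 0.463%, kappa with 0.236% and the gamma-glutamyltransferases with 0.0769%. After division of each gene's mean by its exon length in kilobases, mu held 62.4%, theta 25.7% and omega 6.19%. Since reads were taken at the 3′ end, counts need not grow with transcript length, and both scales are given for that reason. The summed mu level was 7623 ± 2810 normalized counts in Prm2+/+ libraries, 6796 ± 402 in Prm2+/- and 8987 ± 1470 in Prm2-/- (SD, n = 3), and the theta level 3780 ± 619, 4038 ± 267 and 3852 ± 97.5.

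**Figure D2:**
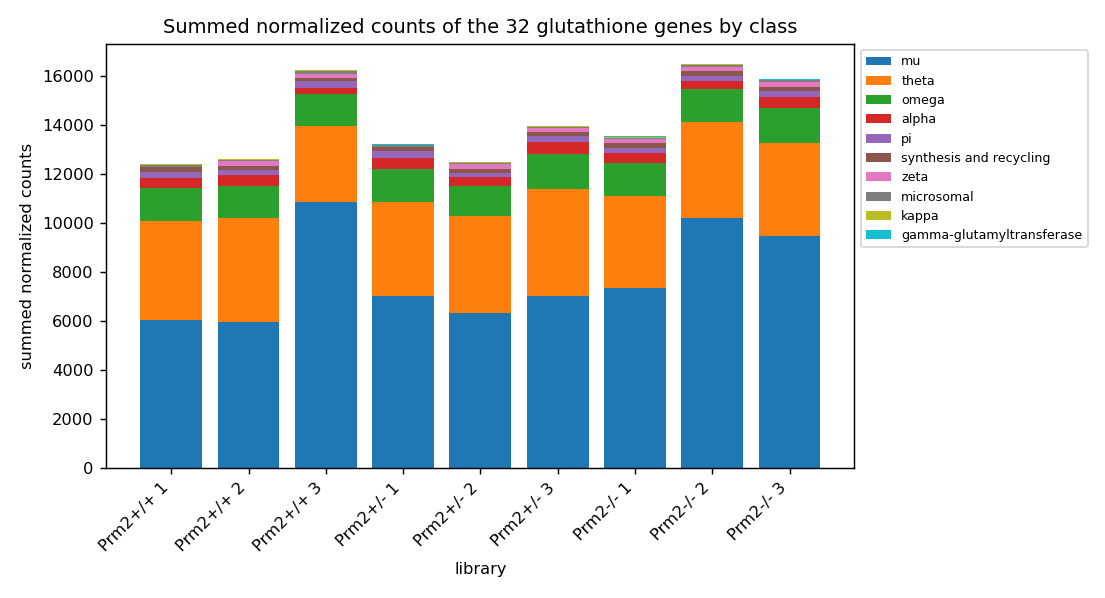
Summed normalized counts of the 32 genes in each of the 9 libraries (x axis), stacked by enzyme class on a linear axis from 0. The stacks run from 12412 to 16480, mu, theta and omega make up most of each, and the mu part is tallest in replicate 3 of Prm2+/+ and replicates 2 and 3 of Prm2-/-.

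Per kilobase of exon, Gstm5 had the highest mean level of the 32 genes, at 3994 normalized counts per kb, with libraries between 2774 and 6338. Gstt4 followed at 1823 (712.8 to 2124) and Gstm1 at 1174 (915.3 to 1591), and their ranges over the libraries overlapped. Gsto2 (513.7 to 601), Gstt3 (402.4 to 578.7) and Gstm2 (302.5 to 493.6) came next with ranges that ran into each other. Gsta4 was seventh with a mean of 132.9 per kb, below the range of Gstm2. Gss was last among the tested genes, at 3.02 per kb.

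Gstm5, a mu class transferase known from testis and brain, had 3647, 3545 and 8100.5 normalized counts in replicates 1 to 3 of Prm2+/+, 4301, 4257 and 4211 in Prm2+/-, and 4305, 7592 and 5974 in Prm2-/-. The 3 Prm2+/- libraries were close to each other, while those of Prm2+/+ and Prm2-/- were spread and overlapped, with the highest value in replicate 3 of Prm2+/+. Gstm1, the next of the mu class, had 1535, 1497 and 1643 in Prm2+/+, 1783, 1348 and 1776 in Prm2+/-, and 1991, 1652 and 2343 in Prm2-/-. Its Prm2-/- libraries were all above the Prm2+/+ libraries, the nearest pair at 1652 and 1643, and Prm2+/- reached into both ranges.

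Gstm2 had 605.3, 643.0 and 828.7 normalized counts in the Prm2+/+ libraries, 686.1, 507.9 and 736.1 in Prm2+/-, and 741.7, 677.9 and 822.6 in Prm2-/-. Gstm7 had 132.1, 130.7 and 158.0 in Prm2+/+, 122.6, 103.2 and 159.9 in Prm2+/-, and 163.9, 139.0 and 146.8 in Prm2-/-. Both genes overlapped between all genotypes. All 6 tested mu genes were below the median of the other 8 libraries in replicate 1 of Prm2+/+ and replicate 2 of Prm2+/-. In replicate 3 of Prm2-/- all 6 were above it. Of all 26 tested genes, 15 were below it in replicate 1 of Prm2+/+ and 19 in replicate 2 of Prm2+/-. Likewise 19 were above it in replicate 3 of Prm2-/-. Gstm6 (100.7 to 126.7 normalized counts) and Gstm4 (13.2 to 29.9) complete the class, and Gstm3 had 1 count, in replicate 1 of Prm2+/+.

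The theta class transferases were led by Gstt3 and Gstt4. Gstt3 had 1922, 1852 and 2223 normalized counts in the Prm2+/+ libraries, 1771, 1865 and 2010.2 in Prm2+/-, and 1777, 1828 and 1546 in Prm2-/-. Here the order was opposite to Gstm1, with all Prm2-/- libraries below the Prm2+/+ libraries and Prm2+/- overlapping both. Gstt4 had 1961, 2100.4 and 705.0 in Prm2+/+, 1744, 1923 and 1998 in Prm2+/-, and 1793, 1918 and 2086 in Prm2-/-. A single library, replicate 3 of Prm2+/+, was low, and the other 8 lay between 1744 and 2100.4. Gstt2 had 132.1, 294.7 and 149.2 in Prm2+/+, 322.3, 148.0 and 317.2 in Prm2+/-, and 184.7, 200.9 and 196.4 in Prm2-/-, where the Prm2-/- libraries lay inside the range of the others.

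Gsto2, an omega class enzyme that also reduces dehydroascorbate, was the steadiest of the genes. It had 1345, 1296 and 1291 normalized counts in the Prm2+/+ libraries, 1296, 1207 and 1406 in Prm2+/-, and 1294, 1299 and 1412 in Prm2-/-. Its SD within genotypes was 0.078 on the log2 scale, at the 1.8th percentile of all tested genes. Gsto1 was far lower, at 13.7 to 25.4.

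In the alpha class, Gsta4, which acts on the lipid peroxidation product 4-hydroxynonenal, had 153.0, 164.0 and 175.7 normalized counts in the Prm2+/+ libraries, 171.0, 163.5 and 183.8 in Prm2+/-, and 185.7, 154.2 and 163.7 in Prm2-/-. These values overlapped throughout, with an SD within genotypes of 0.109 on the log2 scale. Gsta3 had 231.9, 196.1 and 16.6 in Prm2+/+, 244.2, 157.1 and 266.9 in Prm2+/-, and 170.3, 147.1 and 184.8 in Prm2-/-, so that replicate 3 of Prm2+/+ alone was low. Gsta2 lay between 40.9 and 66.5 and Gsta1 between 3.31 and 12.9, and both share most of their words with other genes.

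Gstz1, the zeta class enzyme of tyrosine breakdown, had 23.8, 185.4 and 197.8 normalized counts in the Prm2+/+ libraries, 17.8, 180.0 and 148.5 in Prm2+/-, and 175.7, 185.7 and 180.6 in Prm2-/-. Replicate 1 of Prm2+/+ and replicate 1 of Prm2+/- were low and the other 7 libraries were high. Gstk1, the kappa class enzyme of mitochondria and peroxisomes, had 32.3, 27.9 and 38.7 in Prm2+/+, 27.7, 29.2 and 27.4 in Prm2+/-, and 46.2, 35.5 and 33.8 in Prm2-/-. The Prm2-/- libraries of Gstk1 were above all Prm2+/- libraries and overlapped Prm2+/+.

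Among the membrane-bound microsomal enzymes, Mgst3 had 27.6, 0 and 2.21 normalized counts in the Prm2+/+ libraries, 21.8, 26.5 and 0 in Prm2+/-, and 19.9, 25.4 and 20.1 in Prm2-/-. It was thus at or near 0 in 3 libraries of the other genotypes and near 20 or above in the remaining 6. Mgst1 varied between 2.97 and 55.2, with the highest value in replicate 3 of Prm2+/+, and Mgst2 between 18.3 and 41.8.

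The synthesis and recycling genes had low levels. Gclc, the catalytic subunit of the ligase that limits synthesis, had 145.4, 120.0 and 100.6 normalized counts in the Prm2+/+ libraries, 120.6, 114.2 and 126.4 in Prm2+/-, and 114.1, 115.7 and 120.4 in Prm2-/-. Gss had 24.7, 10.7 and 13.3 in Prm2+/+, 17.8, 20.1 and 11.5 in Prm2+/-, and 24.5, 23.3 and 14.8 in Prm2-/-. Both overlapped between the genotypes. Gsr, glutathione reductase, had 46.6, 42.9 and 11.1 in Prm2+/+, 41.5, 44.8 and 31.8 in Prm2+/-, and 56.1, 44.6 and 62.3 in Prm2-/-, with replicate 3 of Prm2+/+ again the lowest library and an overlap of the other Prm2+/+ libraries with Prm2-/-.

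The gamma-glutamyltransferases were at or near the limit of detection. Ggt7 had 0 to 12.4 and Ggt5 0 to 6.92 normalized counts, and Ggt1 had 4.06 and 5.28 in replicates 2 and 3 of Prm2-/- and 0 elsewhere. Ggt6 and Gstp3 were at 0 in all 9 libraries, which allows up to 0.0825 CPM over the recovered counts of all libraries together, counting error only. The 4 gamma-glutamyltransferases, Gstm3 and Gstp3 did not reach the filter on low counts, so that 26 of the 32 genes were tested.

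**Figure D3:**
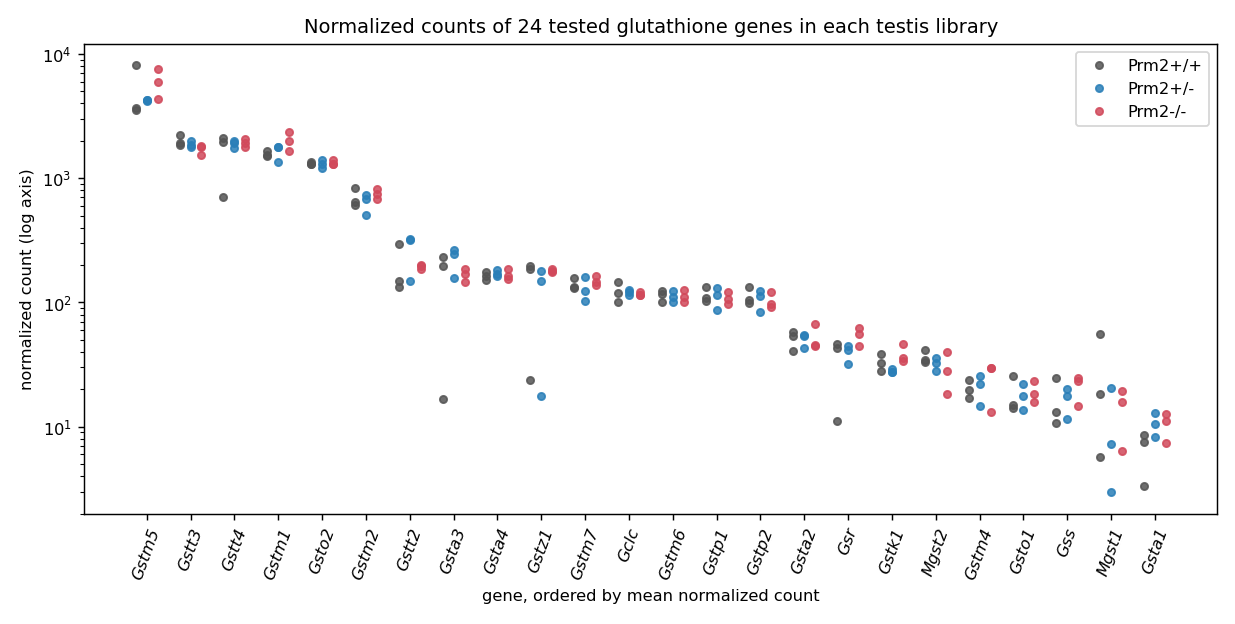
Normalized counts on a log axis of the 24 tested genes that had a value above 0 in every library, with 1 point per library, coloured by genotype. Gsta3, Gstz1 and Gstt4 each show 1 or 2 points far below the rest, while the points of Gsto2 and Gsta4 lie close together.

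The central comparison asked whether testes lacking Prm2 differed from wildtype. Of the 26 tested genes, 0 were called between Prm2-/- and Prm2+/+ (limma, Benjamini-Hochberg adjusted p below 0.05 with an LFC of more than 0.5 in either direction), against 27 of all 14893 tested genes (0.181%). At an unadjusted p under 0.05 the count was also 0 of 26, against 7.33% of all genes, and edgeR and DESeq2 called 0 of the genes as well. The LFC was above 0 for 19 genes and below 0 for 7, with a median of 0.11 against 0.02 over all tested genes. With so few genes called in the whole table, a count of 0 lay close to the background.

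Gstm1 and Gstt3 were the only tested genes of the group whose Prm2-/- and Prm2+/+ libraries did not overlap, 2 of 26 against 14% of all tested genes. The LFC of Gstm1 was 0.34 (SE 0.15, adjusted p = 0.696 in limma), with a 95% interval of -0.008 to 0.694. For Gstt3 the LFC was -0.22 (SE 0.10, adjusted p = 0.701), with an interval of -0.451 to 0.013. Leaving out replicate 3 of Prm2-/- brought these LFCs to 0.22 and -0.14, and leaving out replicate 3 of Prm2+/+ also brought that of Gstt3 to -0.14. With each library left out in turn, Gstm1 ranged from 0.22 to 0.472 and Gstt3 from -0.272 to -0.14. Neither passed the test, and the values of this pair, like those of Gstm5, Gstt4 and Gsto2 below, were picked for the text after they had been seen.

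In the synthesis and recycling group, Gclc had an LFC of -0.05 (SE 0.14, adjusted p = 0.949 in limma), and its interval of -0.380 to 0.285 leaves room for changes up to that size. The LFC of Gss was 0.40 (SE 0.37, adjusted p = 0.785), with 0.16 without replicate 2 of Prm2+/+, 0.73 without replicate 1 of Prm2+/+ and 0.62 without replicate 3 of Prm2-/-. For Gsr it was 0.91 (SE 0.49, adjusted p = 0.721). Leaving out replicate 3 of Prm2+/+ brought the LFC of Gsr to 0.26. With each library left out in turn, the LFC of Gsr ranged from 0.264 to 1.255. None of the 3 enzymes was called.

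Of the abundant transferases, Gstm5 had an LFC of 0.30 (SE 0.33, adjusted p = 0.808 in limma), which became 0.69 without replicate 3 of Prm2+/+. Without replicates 1 or 2 of Prm2+/+ it was 0.11 and 0.09, and without replicates 1 or 2 of Prm2-/- it was 0.52 and 0.10. Gstt4 had 0.43 (SE 0.37, adjusted p = 0.769), which turned to -0.07 without replicate 3 of Prm2+/+. Gsto2 had 0.03 (SE 0.08, adjusted p = 0.948), and its interval of -0.154 to 0.206 was the narrowest of the group.

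A missed threshold does not show that levels were equal, and the intervals tell the genes apart. Between Prm2-/- and Prm2+/+ the 95% interval of the LFC stayed within 0.5 in either direction for 5 of 26 genes, namely Gsto2, Gstm6, Gclc, Gsta4 and Gstt3. For 12 genes it reached beyond 1, among them Gstm5, Gsr, Gss, Gstz1 and Gsta3, so that an LFC of 1 in at least 1 direction lay within their intervals.

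**Figure D4:**
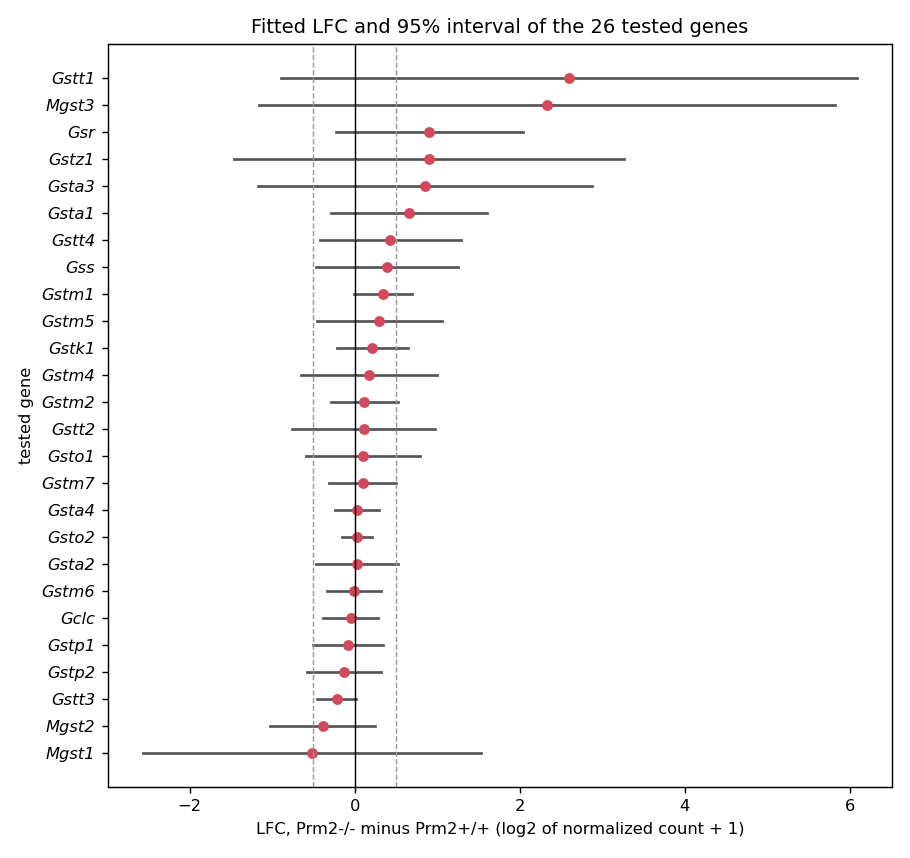
LFC between Prm2-/- and Prm2+/+ of the 26 tested genes in units of log2(normalized count + 1), with 95% intervals from limma and dashed lines at 0.5 in either direction. All 26 intervals include 0. The intervals of Gsto2, Gstm6, Gclc, Gsta4 and Gstt3 stay within 0.5, and those of Gstt1, Mgst3, Gstz1, Mgst1 and Gsta3 are the widest.

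The heterozygous testes served as the other control. Between Prm2+/- and Prm2+/+, 0 of the 26 genes were called in limma, against 12 of 14893 (0.0806%), and 0 had an unadjusted p under 0.05, against 4.24% of all genes. The median LFC was -0.01 against 0.01 over all tested genes, with 11 genes above 0 and 15 below. No gene of the group (0 of 26) had libraries that did not overlap, against 9.44% of all tested genes. The interval of the LFC stayed within 0.5 for 7 genes, namely Gstp1, Gsto2, Gstm6, Gstm1, Gclc, Gsta4 and Gstt3.

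Between Prm2-/- and Prm2+/-, 0 of the 26 genes were called in limma, against 26 of 14893 (0.175%). Gstk1 alone (1 of 26) had an unadjusted p under 0.05, against 5.44% of all tested genes. Its LFC was 0.43 (SE 0.19, unadjusted p = 0.0499, adjusted p = 0.916 in limma), and it was higher in 3 of 3 Prm2-/- libraries. Gstk1 and Gstm5 were the 2 genes of 26 whose libraries did not overlap, against 14.7% of all tested genes. The median LFC was 0.07 against -0.01, with 17 genes above 0 and 9 below. This comparison shares its Prm2-/- libraries with the first one, so that they are not independent of each other.

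Some genes split the libraries into a high and a low set, with a gap of at least 2 log2 units that was larger than the range within either set. These were Gstt1, Gsta3, Mgst3 and Gstz1, 4 of 26 tested genes (15.4%), against 1970 of 14893 (13.2%). The low libraries differed from gene to gene: replicate 3 of Prm2+/+ for Gsta3, replicates 2 and 3 of Prm2+/+ and replicate 3 of Prm2+/- for Mgst3, and replicate 1 of Prm2+/+ and of Prm2+/- for Gstz1. For none of the 4 did the sets follow genotype, although the 3 Prm2-/- libraries were high for Gsta3, Mgst3 and Gstz1.

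Gstt1, a theta class transferase, was at 0 in most libraries. It had 0 in all replicates of Prm2+/+, 0, 0 and 15.9 normalized counts in Prm2+/-, and 14.5, 13.2 and 0 in Prm2-/-. Its mean in Prm2-/-, which includes a 0, was 9.23 normalized counts, 2.78 times the 3.31 that 3 counts make in 1 Prm2+/+ library. Gstt1 passed the filter on low counts only through the libraries in which it had reads. The ratio is therefore no bound on a difference between the genotypes, and Gstt1 was not called (adjusted p = 0.738 in limma). Its neighbours Gstt3, Gstt4 and Gstt2 on chromosome 10 had counts in every library.

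Replicate 3 of Prm2+/+ bears on many of these values. In it 6 of the 26 tested genes (23.1%) were at least 1 log2 unit from the median of the other 8 libraries, 5 of them below and 1 above. The other libraries had 0 to 2 such genes. Over all tested genes the same library had 17.4%, and no test was made of a difference between the group and the rest. Sertoli cell markers summed to 3798 normalized counts in this library, the highest of the 9, against 2820.0 to 3591 in the others, and 0 of the Sertoli markers were called in any comparison. The LFCs without this library are given for Gsr, Gstm5 and Gstt4. Its part in the values of Gsta3, Mgst3, Mgst1 and Gsta1 was not tested.

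**Figure D5:**
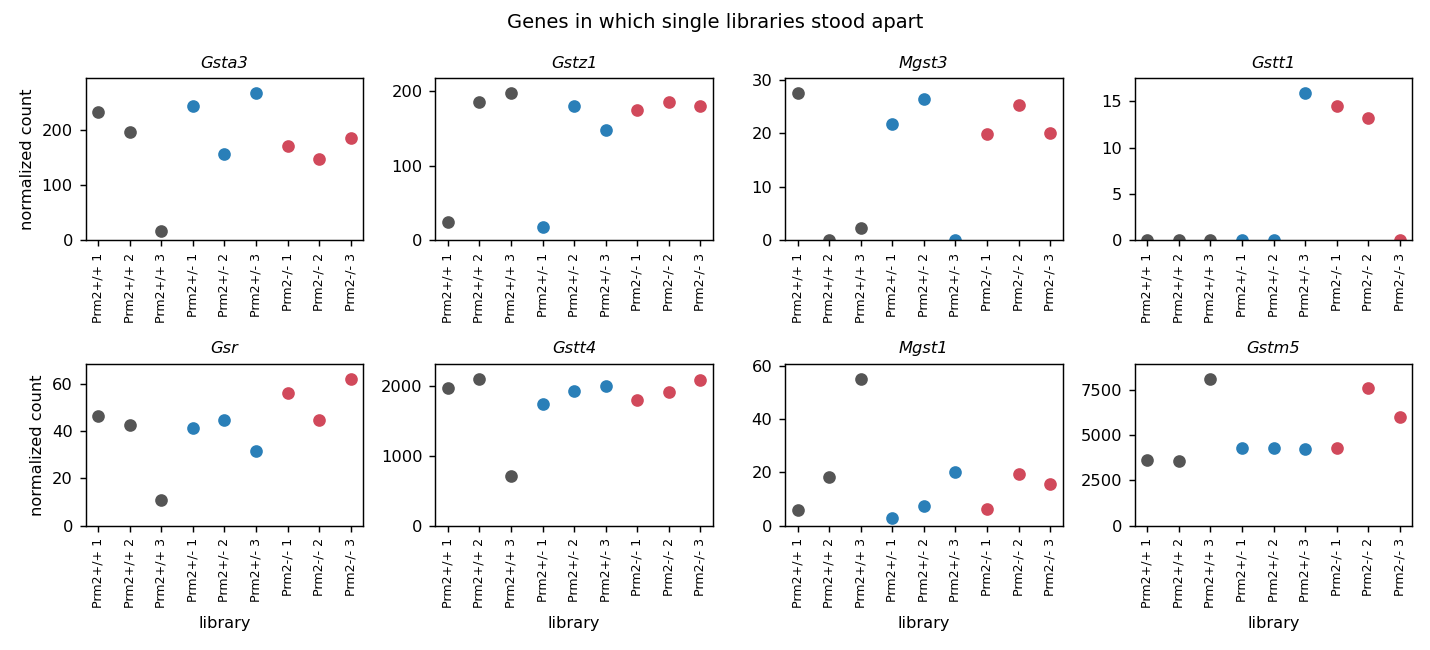
Normalized counts (y axis from 0) of Gsta3, Gstz1, Mgst3, Gstt1, Gsr, Gstt4, Mgst1 and Gstm5 in the 9 libraries (x axis), with 1 point per library, grey for Prm2+/+, blue for Prm2+/- and red for Prm2-/-. Replicate 3 of Prm2+/+ is the lowest point for Gsta3 (16.6), Gsr (11.1) and Gstt4 (705.0) and the highest for Mgst1 (55.2) and Gstm5 (8100.5).

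Leydig cells, the steroid-producing cells of the testis, are known to hold alpha and mu transferases, and their markers were read beside the group. The 7 Leydig markers in the table summed to 1943 to 2155 normalized counts in the Prm2+/+ libraries, 2102 to 2650.0 in Prm2+/- and 2077 to 2359 in Prm2-/-, and 0 of them were called. Markers of peritubular cells summed to 292.8 to 358.2, 279.5 to 308.5 and 240.0 to 298.3 in the same order, macrophage markers to 240.9 to 324.7, 272.9 to 286.8 and 293.3 to 315.2, endothelial markers to 51.3 to 72.9, 69.4 to 78.1 and 61.9 to 86.6, and red blood cell markers to 675.6 to 1188, 903.6 to 1084 and 803.7 to 1205. Markers of spermatogonia (214.5 to 329.3 over all libraries), spermatocytes (6034 to 7498) and round spermatids (4247 to 5779) were present throughout. The part of these cell types in the levels of the glutathione genes was not tested.

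Other enzymes that use or carry glutathione were read as a list of 40 genes (peroxidases, glutaredoxins, transporters and related enzymes), of which 33 were tested. Between Prm2-/- and Prm2+/+ 0 of the 33 were called in limma, against 0.181% of all tested genes. An unadjusted p under 0.05 was found for 3 of the 33, against 7.33% of all tested genes. The LFC was above 0 for 16, with a median of 0.00 against 0.02 over all genes. Lancl1, which encodes a glutathione-binding protein, had 277.5, 266.8 and 316.0 normalized counts in the Prm2+/+ libraries, 344.0, 305.1 and 264.2 in Prm2+/-, and 434.7, 421.1 and 443.5 in Prm2-/-. Its Prm2-/- libraries were above all other libraries, with an LFC of 0.60 (SE 0.12, adjusted p = 0.254 in limma). Prm2-/- and Prm2+/+ libraries did not overlap for 14% of all tested genes. DESeq2 called Lancl1 (adjusted p = 0.006 over 9 samples), in a fit that called 140 genes against 27 in limma. With the size factors of the deposited values, edgeR did not call it (adjusted p = 0.287). Glrx5, a mitochondrial glutaredoxin, had 18.1, 126.5 and 14.4 in Prm2+/+, 92.3 to 157.2 in Prm2+/- and 100.3 to 140.4 in Prm2-/- (LFC 1.90, SE 0.72, adjusted p = 0.640 in limma), and limma called it only without replicate 2 of Prm2+/+. Slc7a11, the cystine transporter that feeds glutathione synthesis, had an LFC of -0.60 (SE 0.25, adjusted p = 0.658 in limma), which was -0.39 without replicate 1 of Prm2-/-. Over single libraries left out, the LFC of Slc7a11 ran from -0.798 to -0.388.

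NRF2 is a transcription factor known to drive many transferase and glutathione synthesis genes under oxidative stress. Of 25 regulators and textbook targets of NRF2 outside the group, 23 were in the table and 20 were tested. Between Prm2-/- and Prm2+/+ 0 of the 20 were called in limma, against 0.181% of all tested genes. An unadjusted p under 0.05 was found for 3 of the 20 (Cul3, Osgin1 and Slc7a11), against 7.33% of all tested genes. The LFC was above 0 for 11, with a median of 0.05 against 0.02 over all genes. Since the list mixes targets with regulators that act against NRF2, these 2 values do not measure NRF2 activity. Cul3, a scaffold of the ligase that degrades NRF2, had 124.5, 1597 and 141.4 normalized counts in replicates 1 to 3 of Prm2+/+, 1610.0, 1719 and 1738 in Prm2+/-, and 1521, 1581 and 1419 in Prm2-/-. Only replicates 1 and 3 of Prm2+/+ were low. The LFC of Cul3 was 2.30 in limma (SE 0.85, adjusted p = 0.622) and 1.28 in edgeR and DESeq2, and limma called it only without replicate 2 of Prm2+/+. Osgin1, an NRF2 target, had an LFC of 1.01 (SE 0.40, adjusted p = 0.649 in limma), which was 0.51 without replicate 3 of Prm2+/+. Over single libraries left out, the LFC of Osgin1 ran from 0.511 to 1.414. Between Prm2+/- and Prm2+/+, and between Prm2-/- and Prm2+/-, 0 genes of both lists were called, against 0.0806% and 0.175% of all tested genes.

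The antioxidant response element to which NRF2 binds was looked for in the promoters of the group by its core letters, TGACNNNGC, on both strands. In 300-base windows from 250 bases before to 50 after the RefSeq start (GRCm38.p6), 7 of 39 windows of the group (17.9%) held the letters, against 12.4% of 32851 windows of all genes. The genes with a match were Ggt1, Gsta3, Gstm5, Gstm7 and Mgst1, 5 of the 27 genes that had a window. Sequence outside these windows was not searched, so a gene without a match may hold the letters elsewhere. Ggt1 alone gave several of the matching windows, at different RefSeq starts, and no share by gene was taken over all genes. A match is a description of letters only, and these 5 genes included the most abundant gene per kilobase (Gstm5) as well as one near 0 (Ggt1).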

How the data were processed

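Per the paper, the authors mapped 3′ reads to GRCm38 (HISAT2 2.1), quantified them (StringTie 1.3.3), made gene counts and scaled these with DESeq2. Trim Galore 0.4.5 is named in the submitters' processing notes. The deposited values are a signal (normalized counts). All (100%, tolerance 0.001) were whole multiples of 1 step per library, from which counts were recovered. In replicate 1 of Prm2+/- the step was too near 1 to tell, and its recovered counts rest on that assumption. The 14893 genes kept by filterByExpr were fitted with limma 3.58.1 (trend) on log2 of the value plus 1, 9 samples, genotype only. Values are normalized counts, SE is the standard error of an LFC, and limits for 0 use 3 counts and cover counting error only. Of the rows, 38520 of 38685 matched GENCODE M21. edgeR 4.0.16 and DESeq2 1.42.0 on recovered counts (R 4.3.3) were alternatives, beside scaling, pseudocount, filter, samples, block and leave-one-out. The fit was tested on simulated counts. Figures used matplotlib 3.10.9. Values by library are given for the 12 tested genes with the highest mean, for Gclc, Gss and Gsr, for genes with an unadjusted p under 0.05, and for genes with a high and a low level. At most 3 genes of each list are named. The members and lists were chosen with earlier results of these data known. Same-numbered libraries did not deviate together (correlations of -0.037 to 0.042), so the numbers were not used as pairs.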

Additional observations from a re-analysis of the deposited data

How the results depend on the processing

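The count of called glutathione genes was 0 in all 120 values over the 3 comparisons, both directions and 20 alternatives. Over all tested genes, 27 were called for Prm2-/- against Prm2+/+, 12 for Prm2+/- against Prm2+/+ and 26 for Prm2-/- against Prm2+/-. A filter of at least 10 counts in every library gave 9, 1 and 11 in the same order, and DESeq2 on 9 samples gave 140, 66 and 113. Restricting DESeq2 to the 6 samples of a comparison gave 165, 62 and 160. With limma on those 6 samples, the first and the third were 50 and 52. Without a filter the second was 21. With each library left out in turn they ranged from 28 to 64 (64 without replicate 2 of Prm2+/+), from 9 to 44 (44 without the same library) and from 23 to 50 (50 without replicate 1 of Prm2+/-). With the replicate block, the counts were 15, 6 and 14. The numbers are shared labels only, and the block changed no call among the glutathione genes. Leave-one-out LFCs between Prm2-/- and Prm2+/+ were computed for Gclc, Gss, Gsr, Gstm1, Gstt3, Gstm5, Gsto2 and Gstt4, and 3 of these changed sign: Gclc was 0.09 without replicate 1 of Prm2+/+ (range -0.178 to 0.086), Gstt4 -0.07 without replicate 3 of Prm2+/+ (range -0.074 to 0.713) and Gsto2 -0.02 without replicate 3 of Prm2-/- (range -0.015 to 0.048). Among the other glutathione enzymes, 1 gene was called with DESeq2 on 9 or on 6 samples and 1 without replicate 2 of Prm2+/+ (range 0 to 1), and 1 NRF2 gene was called without that library (range 0 to 1). The cause of these changes was not tested. Low counts limit Gss, Gsto1, Gstm4, Gsta1, Mgst1, Mgst3 and Gstt1, for which few reads carry each value.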
